A study of Mus musculus with 6 samples.

Results

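Vascular endothelial growth factor (VEGF) and angiopoietin signalling is described here through 9 genes, Vegfa, Vegfc, Vegfd, Kdr, Flt1, Angpt1, Angpt2, Tek and Tie1. They were chosen by name, and all 9 have a row in each of the count matrices, which hold 31017 genes. The tissue was mouse knee synovium, the soft lining of the joint, dissociated to single cells, sorted for live cells and profiled by droplet RNA sequencing that counts the 3' ends of transcripts by unique molecular identifiers (UMIs). Each of the 6 groups is 1 library made from the pooled synovium of 10 mice, with 7000 cells loaded. The groups were healthy mice lacking Notch3 (Notch3-/-) set against healthy wild-type mice, arthritic Notch3-/- mice against arthritic wild-type mice, and arthritic mice given an antibody to Notch3 against arthritic mice given an isotype control antibody. Notch3 is a Notch receptor, and in synovium it is best known in mural cells and in fibroblasts near vessels. Arthritis was induced in all 4 arthritic groups by transfer of serum from K/BxN mice, which carries antibodies that start joint inflammation. The labels used here give no strain, age, sex or day after serum, and no genotype for the antibody-treated mice.

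The VEGF ligands are secreted proteins that bind receptor tyrosine kinases on vessels. VEGF-A, made under low oxygen and other stimuli, acts through VEGFR2 (Kdr), the main receptor for endothelial growth and permeability, while VEGFR1 (Flt1) binds VEGF-A tightly and signals weakly, so that it also acts as a decoy. VEGF-C and VEGF-D act mainly through VEGFR3 (Flt4) on lymphatic endothelium. Angiopoietin-1 (Angpt1), made by cells around vessels, activates the endothelial receptor Tie2 (Tek) and favours quiet, tight vessels. Angiopoietin-2 (Angpt2), made by endothelial cells themselves, mostly opposes it and is known for its release in inflammation and sprouting, and Tie1 is a partner receptor of Tie2 with no ligand of its own that is firmly established.

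On the mm10 build, and with both ends as given in GENCODE vM21, Kdr lies on the minus strand at chr5:75932827-75978458 and Flt1 on the minus strand of the same chromosome at chr5:147561604-147726011. Tek lies on the plus strand at chr4:94739289-94874976 and Tie1 on the minus strand at chr4:118471191-118490061. Among the ligands, Vegfa is at chr17:46016993-46032369 on the minus strand, Vegfc at chr8:54077606-54187096 on the plus strand, Vegfd at chrX:164373378-164402650 on the plus strand, Angpt1 at chr15:42424723-42676977 on the minus strand and Angpt2 at chr8:18690263-18741562 on the minus strand. All 9 are annotated as protein-coding genes.

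The promoters of the 4 receptor genes are shown because these genes shared 1 cell class, the endothelium, in every library. Each sequence is from RefSeq on GRCm38.p6, runs 5' to 3' along the gene from 250 bases before to 50 bases after its annotated start, and has every GGAA, on either strand (TTCC when read on the printed strand), in capitals. GGAA is the core of the motif bound by ETS factors, a family that includes several regulators of endothelial genes. The windows are chr5:75978406-75978705 for Kdr, chr5:147725962-147726261 for Flt1, chr4:94739039-94739338 for Tek and chr4:118489800-118490099 for Tie1.
Kdr: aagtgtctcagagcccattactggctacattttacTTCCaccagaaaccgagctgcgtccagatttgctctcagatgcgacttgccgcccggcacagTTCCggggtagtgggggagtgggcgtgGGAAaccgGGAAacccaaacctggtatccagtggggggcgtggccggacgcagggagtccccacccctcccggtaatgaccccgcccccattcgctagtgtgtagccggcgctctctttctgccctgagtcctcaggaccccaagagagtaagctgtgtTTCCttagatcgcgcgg
Flt1: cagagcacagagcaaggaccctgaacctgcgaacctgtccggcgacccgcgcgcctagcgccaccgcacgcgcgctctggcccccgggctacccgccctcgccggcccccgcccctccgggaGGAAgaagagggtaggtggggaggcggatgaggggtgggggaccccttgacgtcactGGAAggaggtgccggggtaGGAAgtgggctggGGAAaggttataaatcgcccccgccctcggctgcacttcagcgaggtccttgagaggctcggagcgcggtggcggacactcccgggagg
Tek: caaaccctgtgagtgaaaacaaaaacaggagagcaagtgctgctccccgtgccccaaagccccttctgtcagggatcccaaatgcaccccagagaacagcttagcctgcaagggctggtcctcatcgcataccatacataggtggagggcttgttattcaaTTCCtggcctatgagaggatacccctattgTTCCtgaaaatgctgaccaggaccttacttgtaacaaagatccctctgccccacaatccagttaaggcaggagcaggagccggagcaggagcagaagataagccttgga
Tie1: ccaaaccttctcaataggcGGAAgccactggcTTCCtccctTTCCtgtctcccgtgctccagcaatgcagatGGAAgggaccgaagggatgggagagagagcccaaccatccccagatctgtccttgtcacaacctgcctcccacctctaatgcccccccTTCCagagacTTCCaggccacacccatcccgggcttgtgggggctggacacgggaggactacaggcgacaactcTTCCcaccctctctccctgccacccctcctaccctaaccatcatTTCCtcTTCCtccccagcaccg
The Kdr promoter window held 5 such cores, that of Flt1 4, that of Tek 2 and that of Tie1 9, against a median of 3 over 32851 promoter windows of the same length. GGAA is short and stood in 96.0% of those windows, so its presence sets these 4 genes apart from no others. The longer form CAGGAA, on either strand, stood in 30.6% of all windows, and among the receptor genes it occurred 2 times for Tek, once for Tie1 and not in the Kdr and Flt1 windows. The hypoxia-response core ACGTG, searched on both strands, was in 19.6% of all windows and, among the 7 of 9 genes with a window in the RefSeq table, in 1 of the 2 windows of Vegfa only.

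The 6 libraries held 18491 cell barcodes and 11636998 to 24535233 UMIs each, with a median of 3988 to 7561 UMIs per cell, and any pair of libraries shared 5 to 29 barcode sequences. After removal of barcodes with over 10% mitochondrial UMIs, 18077 were clustered without the 9 genes, Notch3 and the other genes of the pathway. Clusters were named from marker genes, and called doublets were then dropped, which left 17898 cells. The endothelial class held 230 healthy Notch3-/-, 156 healthy wild-type, 234 arthritic Notch3-/-, 131 arthritic wild-type, 124 arthritic anti-Notch3 and 231 arthritic isotype cells, and all 11 endothelial markers were present in each. Notch3 itself stood at 0.299 CPM (counts scaled to a common total, from 7 UMIs) in all cells of the healthy Notch3-/- library against 4.96 CPM in the healthy wild-type library, at 0.257 CPM (3 UMIs) in the arthritic Notch3-/- library against 5.58 CPM in the arthritic wild-type library, and at 2.21 CPM in the anti-Notch3 library against 3.30 CPM in the isotype library. The labels do not say which exons the knockout lacks, so a 3' count may fall outside them. The libraries differed in which clusters made up a class. Cluster 10 held most endothelial cells in the healthy Notch3-/- (66.1%), healthy wild-type (78.8%), arthritic Notch3-/- (76.1%) and anti-Notch3 (66.9%) libraries, and cluster 14 held most in the arthritic wild-type (82.4%) and isotype (72.7%) libraries. A class level therefore mixes a change in the kinds of endothelial cell with a change within a kind.

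All levels are CPM of the UMIs of a class in a library, with 95% exact Poisson intervals that cover counting error only. They are compared between classes and libraries for 1 gene at a time and not between genes. Classes are ordered among the 4 with at least 30 cells in every library, namely endothelial, fibroblast, myeloid and T and NK cells. Kdr, Flt1, Tek, Tie1 and Angpt2 were highest in endothelial cells among these 4, and for each of these 5 genes the 6 endothelial levels did not overlap the 6 levels of the next class. Angpt2 was higher still in the small mural class, at 128 CPM over all libraries (112 cells) against 44.6 CPM in endothelial cells, and it was above endothelial cells in 6 of 6 libraries. Vegfd and Angpt1 were highest in fibroblasts among the 4, again without overlap. Vegfa had its highest median in fibroblasts (16.7 CPM, range 7.49 to 28.1) before myeloid cells (3.22 CPM, range 2.43 to 55.6), and these ranges overlapped. Vegfc had its highest median in endothelial cells (51.8 CPM, range 10.6 to 69.8) before fibroblasts (18.9 CPM, range 17.7 to 37.4), and these ranges overlapped too. Tendon-like cells, with 30 cells in 4 libraries only, held 39.8 CPM of Vegfc over all libraries, against 38.1 CPM in endothelial cells.

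**Figure D1:**
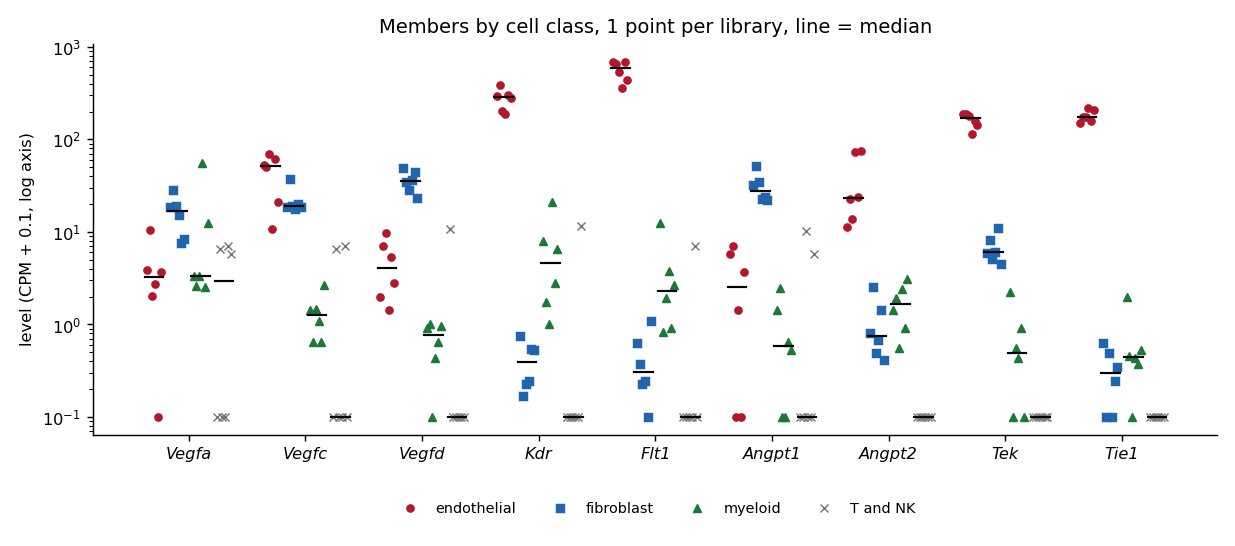
Level of each gene (CPM plus 0.1, log axis) in endothelial, fibroblast, myeloid and T and NK cells, 1 point per library with the median as a line. Endothelial points of Kdr, Flt1, Tek, Tie1 and Angpt2 lie above the other 3 classes shown, and so do the fibroblast points of Vegfd and Angpt1.

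Because fibroblasts were the most numerous class, shares of all UMIs differ from levels. Endothelial cells held 86.1% of the Kdr UMIs in named classes, 93.0% of those of Flt1 and 94.8% of those of Tie1. They held 56.3% of those of Tek, with 41.2% in fibroblasts, and 52.9% of those of Angpt2, with 21.2% in fibroblasts. Fibroblasts held 96.2% of Vegfd, 96.5% of Angpt1, 82.6% of Vegfc and 78.7% of Vegfa UMIs, and myeloid cells held 16.3% of the Vegfa UMIs. The mural class, pericytes and smooth muscle around vessels, had only 9 to 33 cells a library, and Angpt2 there stood at 123 CPM in healthy Notch3-/- against 157 CPM in healthy wild-type cells, 84.0 CPM in arthritic Notch3-/- against 129 CPM in arthritic wild-type cells, and 40.6 CPM in anti-Notch3 against 182 CPM in isotype cells, from 1 to 15 UMIs each.

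Among ligands made by endothelial cells, Angpt2 stood out for its level in the 2 arthritic libraries with no Notch3 targeting. Angpt2 measured 11.3 CPM (95% interval 4.15 to 24.6) in healthy Notch3-/- cells against 22.8 CPM (12.1 to 38.9) in healthy wild-type cells. It measured 13.6 CPM (5.46 to 28.0) in arthritic Notch3-/- cells against 73.0 CPM (54.96 to 94.97) in arthritic wild-type cells, and 23.9 CPM (10.9 to 45.3) in anti-Notch3 cells against 73.9 CPM (58.8 to 91.8) in isotype cells. The arthritic wild-type and isotype libraries were alike and their intervals lay above those of the other 4. Angpt2 was 5.37-fold lower in arthritic Notch3-/- than in arthritic wild-type cells (ratio 0.186, 95% counting interval 0.0715 to 0.410) and 3.10-fold lower in anti-Notch3 than in isotype cells (ratio 0.323, 0.142 to 0.643). In wild-type mice, arthritic cells held 3.20-fold as much as healthy cells (1.73 to 6.40).

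Vegfc, the lymphatic growth factor, ran the other way in the same cells. It measured 52.8 CPM (35.1 to 76.3) in healthy Notch3-/- cells against 50.8 CPM (34.0 to 72.9) in healthy wild-type cells, 69.8 CPM (48.9 to 96.7) in arthritic Notch3-/- cells against 10.6 CPM (4.58 to 20.9) in arthritic wild-type cells, and 61.0 CPM (38.6 to 91.5) in anti-Notch3 cells against 20.7 CPM (13.1 to 31.1) in isotype cells. The arthritic wild-type and isotype libraries were the low ones, and the other 4 overlapped each other. The ratio was 6.58 (3.01 to 16.4) for arthritic Notch3-/- over wild type, 2.94 (1.58 to 5.48) for anti-Notch3 over isotype and 1.04 (0.596 to 1.81) for healthy Notch3-/- over wild type.

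Of the receptors, Flt1, the decoy receptor, measured 690.1 CPM in healthy Notch3-/- cells against 655 CPM in healthy wild-type cells, 534 CPM in arthritic Notch3-/- cells against 357 CPM in arthritic wild-type cells, and 678 CPM in anti-Notch3 cells against 444 CPM in isotype cells. The 2 untargeted arthritic libraries were again the lowest. The ratio was 1.495 (1.26 to 1.78) for arthritic Notch3-/- over wild type, 1.53 (1.31 to 1.78) for anti-Notch3 over isotype and 1.05 (0.910 to 1.22) in healthy mice.

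Kdr, the main signalling receptor, measured 292 CPM in healthy Notch3-/- cells against 390.4 CPM in healthy wild-type cells, 202 CPM in arthritic Notch3-/- cells against 187 CPM in arthritic wild-type cells, and 305 CPM in anti-Notch3 cells against 277 CPM in isotype cells. Its levels overlapped between targeted and untargeted libraries, with the arthritic genotype pair lowest. Wild-type arthritis held 2.09-fold less than wild-type health (ratio 0.479, 0.385 to 0.594), but the arthritic wild-type library was also below the isotype library (ratio 0.676, 0.550 to 0.828), so these untargeted arthritic libraries did not repeat each other.

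Tek, the angiopoietin receptor, measured 189 CPM in healthy Notch3-/- cells against 187 CPM in healthy wild-type cells, 180.4 CPM in arthritic Notch3-/- cells against 114 CPM in arthritic wild-type cells, and 159 CPM in anti-Notch3 cells against 142 CPM in isotype cells. Tie1, its partner, measured 151 CPM in healthy Notch3-/- cells against 175 CPM in healthy wild-type cells, 175 CPM in arthritic Notch3-/- cells against 216 CPM in arthritic wild-type cells, and 156 CPM in anti-Notch3 cells against 207 CPM in isotype cells. Both moved over a narrow range, with Tek lowest and Tie1 highest in the 2 untargeted arthritic libraries. Of the 3 Notch3 pairs, Tek passed 1.5-fold in the arthritic genotype pair (ratio 1.58, 1.17 to 2.15), and it was also 1.64-fold lower in wild-type arthritis than in wild-type health (ratio 0.609, 0.453 to 0.816).

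**Figure D2:**
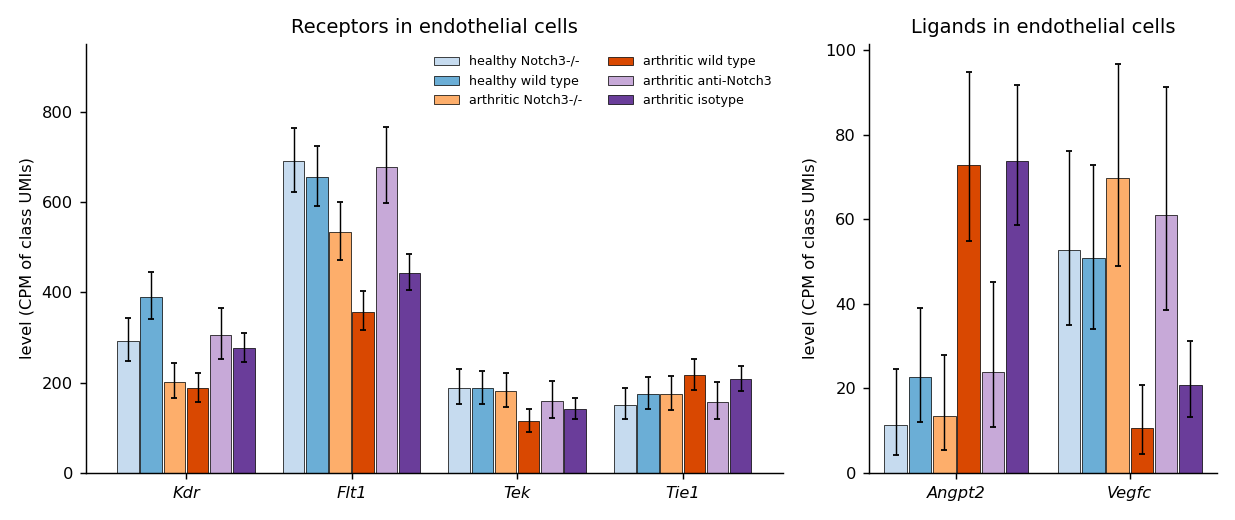
Level of the 4 receptors (left) and of Angpt2 and Vegfc (right) in endothelial cells of each library, as bars from 0 in CPM of class UMIs, with 95% exact Poisson intervals. Angpt2 reaches 73.0 CPM in arthritic wild-type and 73.9 CPM in isotype cells and stays at or below 23.9 CPM elsewhere, while Vegfc is lowest in those 2 libraries.

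Read together, 5 of the 6 genes with at least 100 UMIs in endothelial cells had both untargeted arthritic libraries on 1 side of the other 4: Angpt2 and Tie1 above, and Vegfc, Flt1 and Tek below. Over the 5023 endothelial genes with as many UMIs, 22.6% lay above and 15.2% below in this way, so the pattern was common in these cells. By pair, with at least 20 UMIs over the 2 libraries, 0 of 5 members passed 1.5-fold in the healthy pair (31.9% of 6368 genes did). In the arthritic genotype pair 3 of 6 members passed, Vegfc and Tek higher and Angpt2 lower (43.0% of genes). In the antibody pair 3 of 6 passed, Vegfc and Flt1 higher and Angpt2 lower (37.7% of genes). Between the arthritic wild-type and isotype libraries, neither of which was Notch3-targeted, Vegfc alone of 6 passed 1.5-fold, lower in the wild-type library (24.3% of genes passed). In wild-type mice, arthritis over health gave 5 of 6 past 1.5-fold, Angpt2 higher and Vegfc, Kdr, Flt1 and Tek lower (45.9% of genes). In Notch3-/- mice the same comparison gave 0 of 5 (25.9% of genes).

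To set these ratios against the disagreement between pairs, counts summed per library and class were fitted with edgeR's quasi-likelihood test, taking the 3 pairs as a block and knockout and antibody as repeats of Notch3 targeting, with 2 residual degrees of freedom. In endothelial cells 0 of 6 members tested passed an adjusted p of 0.05, and 0 of 6929 genes did (0.0%), with 541 genes at an unadjusted p under 0.05 and 29 genes, no member among them, called by DESeq2. The edgeR log2 change was -1.66 (SE 0.370, adjusted p = 0.360) for Angpt2, lower in 3 of 3 pairs. For Vegfc it was 1.42 (SE 0.461, adjusted p = 0.501), with Vegfc higher in the arthritic pairs and nearly level in the healthy pair. The edgeR change was 0.52 (SE 0.246, adjusted p = 0.665) for Flt1, 0.37 (adjusted p = 0.753) for Tek, 0.04 (adjusted p = 0.975) for Kdr and -0.21 (adjusted p = 0.856) for Tie1.

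With the 2 arthritic pairs alone, a design with 1 residual degree of freedom in which edgeR gave every endothelial gene 1 shared spread, 3 of 6 members passed, against 15.7% of 6892 genes (9.29% higher and 6.4% lower). Angpt2 was lower by a log2 change of -1.92 (SE 0.385, edgeR adjusted p = 1.56e-05), Vegfc was higher by 2.12 (SE 0.392, edgeR adjusted p = 1.96e-06) and Flt1 was higher by 0.68 (SE 0.226, edgeR adjusted p = 0.0207). DESeq2 on the same libraries called 243 genes and none of these members, with an adjusted p of 0.0667 for Vegfc, 0.138 for Angpt2 and 0.215 for Flt1. Tek (0.50, edgeR adjusted p = 0.140), Kdr (0.21, edgeR adjusted p = 0.655) and Tie1 (-0.27, edgeR adjusted p = 0.533) did not pass in either tool.

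The Notch3 effect on endothelial Vegfc differed between arthritic and healthy pairs, by a log2 difference of 1.89 (SE 0.605, edgeR interaction test with 1 residual degree of freedom, adjusted p = 0.0368). It was 1 of 6 members and 7.41% of 7817 genes called in that test. The test drew most of a gene's spread from all genes together, which edgeR weighted as 77.23 degrees of freedom. For Angpt2 the same difference was -1.09 (edgeR adjusted p = 0.556), for Flt1 0.44 (edgeR adjusted p = 0.603) and for Kdr 0.46 (edgeR adjusted p = 0.581).

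For arthritis against health, fitted over all 6 libraries with edgeR, 0 of 6 endothelial members and 0 of 6929 genes (0.0%) passed, with 464 genes at an unadjusted p under 0.05 and 4 genes called by DESeq2. Angpt2 had a log2 change of 1.39 (SE 0.382, edgeR adjusted p = 0.716), Vegfc -0.61 (edgeR adjusted p = 0.783), Kdr -0.46 (edgeR adjusted p = 0.739) and Flt1 -0.43 (edgeR adjusted p = 0.731). Without the healthy Notch3-/- library Angpt2 alone among the members passed (1.77, edgeR adjusted p = 0.0290), and 431 genes did.

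The kinds of endothelial cell were separated by re-clustering the endothelial class without the 9 genes. Angpt2 was low in capillary-like cells (sub-cluster 0, 17.4 CPM), in arterial-like cells (sub-cluster 6, 4.396 CPM) and in a first venous-like group (sub-cluster 1, 26.8 CPM). It was high in lymphatic-like cells (sub-cluster 7, 103 CPM over 42 cells), in a second venous-like group with Glycam1 and Selp among its leading genes (sub-cluster 3, 77.0 CPM), and in an unnamed group led by Lyz2, Cxcl2, Apln and Mest (sub-cluster 2, 70.6 CPM). Vegfc was highest in arterial-like cells (198 CPM in sub-cluster 6 and 114 CPM in sub-cluster 8) and in the first venous-like group (66.3 CPM), and had 0 UMIs in the lymphatic-like cells, which allows up to 21.1 CPM. The highest levels of Vegfc and of its receptor Flt4 thus lay in different sub-clusters. Flt4 stood at 411 CPM in the lymphatic-like cells, 30.8 CPM (7 UMIs) in sub-cluster 6 and at most 34.9 CPM in any other. In the lymphatic-like cells Flt1 had 0 UMIs, Tek 17.1 CPM, Kdr 297 CPM and Tie1 199.98 CPM.

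Among blood endothelial groups Kdr ran from 141 CPM in arterial-like sub-cluster 6 and 207 CPM in venous-like sub-cluster 1 to 375 CPM in capillary-like sub-cluster 0 and 519 CPM in an unnamed group led by Penk and Esm1 (sub-cluster 5). Flt1 was also highest in sub-cluster 5, at 1011 CPM, against 587 CPM in sub-cluster 0. Arterial-like sub-cluster 8 had 0 Kdr UMIs in 36 cells, which allows up to 32.5 CPM, and 220.2 CPM of Tek. Tek was highest in venous-like sub-cluster 1, at 232 CPM, against 125 CPM in capillary-like sub-cluster 0.

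Sub-clusters 2 and 3 together made up most of the endothelial cells of the 2 untargeted arthritic libraries and few elsewhere. Sub-cluster 2 held 1.74% of healthy Notch3-/- against 0.641% of healthy wild-type endothelial cells, 1.28% of arthritic Notch3-/- against 35.9% of arthritic wild-type cells, and 3.23% of anti-Notch3 against 39.0% of isotype cells. Sub-cluster 3 held 0% of healthy Notch3-/- against 0.641% of healthy wild-type cells, 0% of arthritic Notch3-/- against 38.2% of arthritic wild-type cells, and 4.84% of anti-Notch3 against 37.2% of isotype cells. A group of cells found mostly in these libraries may mark the libraries and not a cell type, and the 10 leading genes of sub-cluster 2 included the myeloid genes Lyz2 and Tyrobp and the chemokine genes Cxcl2 and Ccl6. Arterial-like sub-cluster 6, the highest in Vegfc, made up 9.57% of healthy Notch3-/- against 13.5% of healthy wild-type cells, 11.97% of arthritic Notch3-/- against 0% of arthritic wild-type cells, and 7.26% of anti-Notch3 against 3.03% of isotype cells. Whether class Angpt2, and class Vegfc in the arthritic pairs, moved through these shares or within a kind of cell cannot be told apart. No sub-cluster with high Angpt2 held 20 cells on both sides of a pair. In the arthritic pairs, none of sub-clusters 1, 6 and 8, those named above as highest in Vegfc, did so either. Sub-clusters 1 and 6 did in the healthy pair, where class Vegfc was nearly level.

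**Figure D3:**
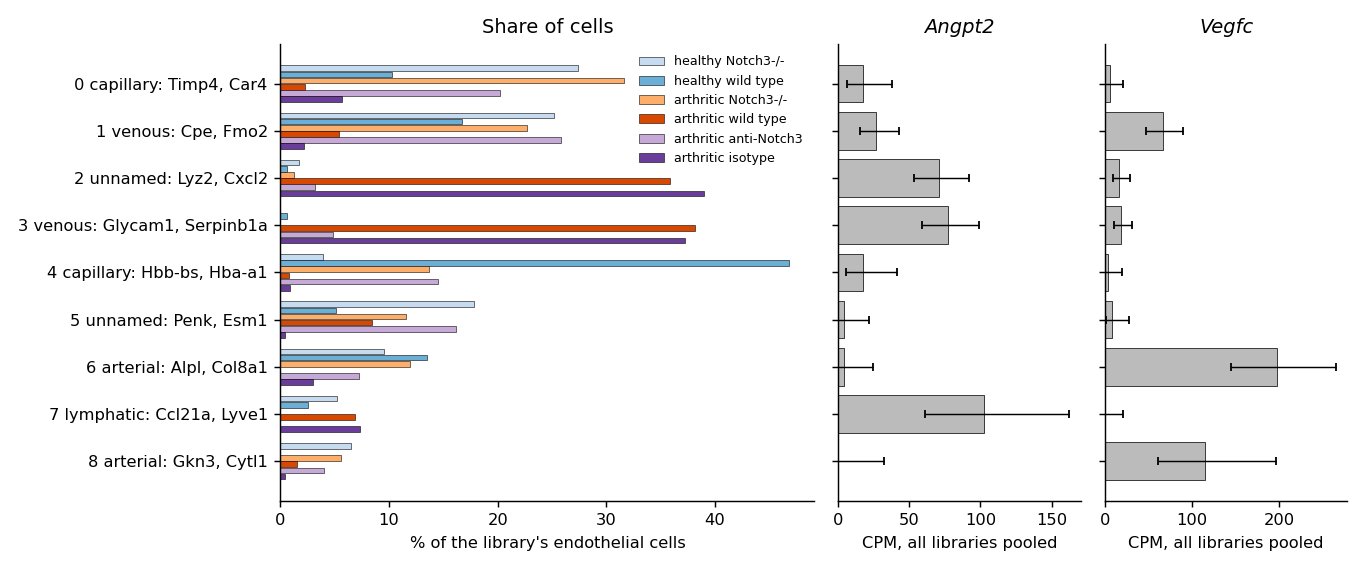
Share of each library's endothelial cells in each endothelial sub-cluster (left, percent) and level of Angpt2 (middle) and Vegfc (right) in each sub-cluster over all libraries (CPM, 95% exact Poisson intervals), with rows labelled by the kind of cell each resembles and its first 2 leading genes, which are haemoglobin genes in sub-cluster 4. Angpt2 is high in sub-clusters 2, 3 and 7, and the first 2 of these hold 35.9% and 38.2% of arthritic wild-type endothelial cells.

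Lymphatic-like cells were missing from 2 libraries. They numbered 12 healthy Notch3-/- against 4 healthy wild-type cells, 0 arthritic Notch3-/- against 9 arthritic wild-type cells, and 0 anti-Notch3 against 17 isotype cells. The 5 lymphatic markers summed to 2662 CPM of the endothelial class in healthy Notch3-/- against 1469 CPM in healthy wild-type mice, 21.3 CPM in arthritic Notch3-/- against 2419.6 CPM in arthritic wild-type mice, and 23.9 CPM in anti-Notch3 against 2744 CPM in isotype mice, with Ccl21a and Reln at 0 in both targeted arthritic libraries. Without the lymphatic-like cells, Angpt2 stood at 7.97 CPM in healthy Notch3-/- against 23.6 CPM in healthy wild-type cells, 13.6 CPM in arthritic Notch3-/- against 75.2 CPM in arthritic wild-type cells, and 23.9 CPM in anti-Notch3 against 65.8 CPM in isotype cells. The arthritic wild-type and isotype libraries thus stood highest without them too. In the arthritic pairs alone Flt1 then no longer passed (0.59, edgeR adjusted p = 0.0574), while Angpt2 and Vegfc did. The 9 fibroblast markers summed to 2834 CPM in healthy Notch3-/- against 1516 CPM in healthy wild-type endothelial cells, 1226 CPM in arthritic Notch3-/- against 653 CPM in arthritic wild-type cells, and 273 CPM in anti-Notch3 against 2707 CPM in isotype cells. Sub-clusters 9 (17 cells) and 10 (14 cells) were mixed, with 4 fibroblast and 4 mural markers in turn among their leading genes. Without these mixed sub-clusters, edgeR called 0 of 6 members over all 3 pairs and 3 of 6 in the arthritic pairs alone. The part of fibroblast markers in the other sub-clusters was not tested. Haemoglobin and other erythroid genes summed to 16959 CPM in healthy wild-type endothelial cells and to 44.6 CPM or less in each other library.

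Because endothelial cells of the 2 untargeted arthritic libraries held more UMIs each, at a median of 5260 and 3880 against 1790 to 2842 in the other 4, cells were also thinned to 2000 UMIs. Angpt2 was then seen in 2.91% of healthy Notch3-/- and 5.50% of healthy wild-type endothelial cells, 3.96% of arthritic Notch3-/- and 11.02% of arthritic wild-type cells, and 4.60% of anti-Notch3 and 13.04% of isotype cells. Vegfc was seen in 12.6% of healthy Notch3-/- and 6.42% of healthy wild-type cells, 14.9% of arthritic Notch3-/- and 1.69% of arthritic wild-type cells, and 8.05% of anti-Notch3 and 2.72% of isotype cells. The arthritic wild-type and isotype libraries had the highest Angpt2 and the lowest Vegfc shares at an equal number of UMIs. Unthinned, the Angpt2 share was 2.17% of healthy Notch3-/- and 8.33% of healthy wild-type cells, 2.56% of arthritic Notch3-/- and 16.8% of arthritic wild-type cells, and 5.65% of anti-Notch3 and 17.7% of isotype cells. Left out as shallower were 127 healthy Notch3-/- and 47 healthy wild-type cells, 133 arthritic Notch3-/- and 13 arthritic wild-type cells, and 37 anti-Notch3 and 47 isotype cells.

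Other genes of the pathway were read in endothelial cells from 4 lists. In the fit over all 3 pairs 0 genes of any list passed. The edgeR fit of the arthritic pairs alone, used for the calls below, gave every endothelial gene 1 shared spread. In the arthritic pairs alone, where 15.7% of all genes passed, 2 of 6 tested ligands and co-receptors were higher and 2 lower (median log2 change -0.11, against -0.01 over all genes). Ptprb, a phosphatase that dampens Tie2 and VEGFR2, was higher (1.25, edgeR adjusted p = 1.60e-06), at 555 CPM in arthritic Notch3-/- against 235 CPM in arthritic wild-type cells and 737 CPM in anti-Notch3 against 346 CPM in isotype cells. Nrp1, a VEGF co-receptor, was higher too (0.78, edgeR adjusted p = 0.00826). Pgf, placental growth factor and a ligand of Flt1, was lower (-2.40, edgeR adjusted p = 5.73e-06). It measured 7.76 CPM in arthritic Notch3-/- against 43.8 CPM in arthritic wild-type cells and 13.3 CPM in anti-Notch3 against 75.7 CPM in isotype cells. By sub-cluster Pgf was highest in the lymphatic-like cells (320 CPM, 56 UMIs), followed by sub-cluster 2 (91.1 CPM, 71 UMIs). The lymphatic-like cells numbered 0 in both targeted arthritic libraries, and their part in the lower Pgf was not tested. Plxnd1, a semaphorin receptor, was lower too (-0.89, edgeR adjusted p = 0.00367).

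Of 11 tested VEGF-responsive and tip-cell genes, 2 were higher and 4 lower in the arthritic pairs alone (median 0.14). Apln, a peptide of sprouting tip cells, was the lowest of them (-4.99, edgeR adjusted p = 1.09e-21), at 3.88 CPM in arthritic Notch3-/- against 141 CPM in arthritic wild-type cells and 2.65 CPM in anti-Notch3 against 90.2 CPM in isotype cells. Healthy cells had 7.54 CPM of Apln in the Notch3-/- library and 0 UMIs in the wild-type library. By sub-cluster Apln was highest in sub-cluster 2 (210 CPM, 164 UMIs), which held few cells of the targeted arthritic libraries. The part of sub-cluster 2 in the lower Apln was not tested. Cxcr4, a chemokine receptor of tip cells (-2.64, edgeR adjusted p = 3.83e-04), Nid2, a basement membrane protein (-1.76, edgeR adjusted p = 1.87e-04), and Igfbp3, a binding protein of insulin-like growth factors (-0.65, edgeR adjusted p = 0.0488) were also lower. Egr3, an early VEGF-response transcription factor (2.23, edgeR adjusted p = 2.27e-10), and Adamts1, a secreted protease (0.74, edgeR adjusted p = 0.0116), were higher, so the list did not move as 1. The 13 myeloid markers summed to 107 CPM in healthy Notch3-/- against 102 CPM in healthy wild-type endothelial cells, 167 CPM in arthritic Notch3-/- against 259 CPM in arthritic wild-type cells, and 162 CPM in anti-Notch3 against 323 CPM in isotype cells, with 3 to 8 of the 13 at 0 in each library and Flt3 and Itgax at 0 in all 6. Their part in the endothelial results, among them that for Cxcr4, a gene myeloid cells also express, was not tested.

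In the arthritic pairs alone, where 15.7% of all endothelial genes passed, 2 of 7 tested hypoxia-response genes were higher and 1 lower. Bnip3 (1.62, edgeR adjusted p = 0.00147) and Ndrg1 (0.83, edgeR adjusted p = 0.00405) were higher. The glycolytic enzyme Pgk1 was lower (-0.88, edgeR adjusted p = 0.00434). Of 3 tested genes of the Tie2 and FOXO1 list, 1 passed in the same fit. It was the flow-responsive factor Klf2, which was higher (0.89, edgeR adjusted p = 0.00147). Klf2 measured 3847 CPM in arthritic Notch3-/- against 2272 CPM in arthritic wild-type endothelial cells, and it also stood at 3035 CPM against 1408 CPM in fibroblasts of the same libraries, so it was not limited to endothelium. Its healthy levels were 4969 CPM in Notch3-/- against 1746 CPM in wild-type endothelial cells.

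In fibroblasts, the ligands Vegfa, Vegfc, Vegfd and Angpt1 differed from one another in which libraries were high. Angpt1, the Tie2 agonist, measured 31.8 CPM in healthy Notch3-/- against 51.8 CPM in healthy wild-type fibroblasts, 34.5 CPM in arthritic Notch3-/- against 22.7 CPM in arthritic wild-type fibroblasts, and 23.5 CPM in anti-Notch3 against 21.8 CPM in isotype fibroblasts. The healthy wild-type library was the high one, and the arthritic wild-type, anti-Notch3 and isotype libraries were the low ones. Angpt1 was 1.63-fold lower in healthy Notch3-/- than in wild-type mice (ratio 0.615, 0.550 to 0.688) and 2.28-fold lower in wild-type arthritis than in wild-type health (ratio 0.439, 0.366 to 0.522).

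Vegfa measured 18.3 CPM in healthy Notch3-/- against 28.1 CPM in healthy wild-type fibroblasts, 19.2 CPM in arthritic Notch3-/- against 15.1 CPM in arthritic wild-type fibroblasts, and 7.49 CPM in anti-Notch3 against 8.33 CPM in isotype fibroblasts. The 4 arthritic libraries fell into the genotype pair and the lower antibody pair. The arthritic wild-type library held 1.81-fold as much as the isotype library (1.39 to 2.36), although neither was targeted, and this was larger than the difference within either arthritic pair (ratios 1.27 and 0.900).

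Vegfd measured 48.5 CPM in healthy Notch3-/- against 34.4 CPM in healthy wild-type fibroblasts, 28.4 CPM in arthritic Notch3-/- against 36.0 CPM in arthritic wild-type fibroblasts, and 43.9 CPM in anti-Notch3 against 23.2 CPM in isotype fibroblasts. Knockout and antibody went opposite ways in arthritis, with ratios of 0.788 (0.654 to 0.950) and 1.89 (1.62 to 2.21). Vegfc measured 18.5 CPM in healthy Notch3-/- against 37.4 CPM in healthy wild-type fibroblasts and lay between 17.7 and 19.7 CPM in the 4 arthritic libraries, so that the healthy wild-type library stood alone.

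Members past 1.5-fold in fibroblasts numbered 4 lower of 6 in the healthy pair (Vegfa, Vegfc, Angpt1 and Angpt2; 18.1% of 12645 genes were lower). In the arthritic genotype pair there was 1 of 5 higher (Angpt1; 12.9% of genes), and in the antibody pair 2 of 5 higher (Vegfd and Tek; 10.7% of genes). Between the arthritic wild-type and isotype libraries 2 of 5 were higher (Vegfa and Vegfd; 9.99% of genes). Wild-type arthritis over health gave 4 of 6 lower (Vegfa, Vegfc, Angpt1 and Angpt2; 19.8% of genes), and Notch3-/- arthritis over health 1 of 5 lower (Vegfd; 10.2% of genes). Both untargeted arthritic libraries lay below the other 4 for 2 of 5 members (Vegfc and Angpt1, against 12.5% of genes), by a small margin for each. Fibroblast Angpt2 in the healthy pair was 0.710 CPM in Notch3-/- against 2.46 CPM in wild-type cells, from 12 and 36 UMIs. In the edgeR fit over all 3 pairs 0 of 6 members passed, against 0.0316% of 12652 genes, with 198 genes and no member called by DESeq2, and adjusted p values of 0.702 to 0.967 for the members. In the arthritic pairs alone 0 of 5 passed in edgeR, against 2.66% of 11702 genes. For arthritis 0 of 6 passed, as did 0 of all genes (0.0%), with 1022 genes at an unadjusted p under 0.05 and 55 called by DESeq2. The log2 change with arthritis was -0.72 for Angpt1 (edgeR adjusted p = 0.602) and -0.89 for Vegfa (edgeR adjusted p = 0.611). The Notch3 effect differed between arthritic and healthy pairs for 0 of 7 members tested, against 0.234% of 13243 genes, and the difference of 1.10 for Vegfc had an edgeR adjusted p of 0.177. Of 8 tested hypoxia-response genes Adm, adrenomedullin, was the only one to pass in the arthritic pairs alone, higher by 1.78 (edgeR adjusted p = 0.0366).

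**Figure D4:**
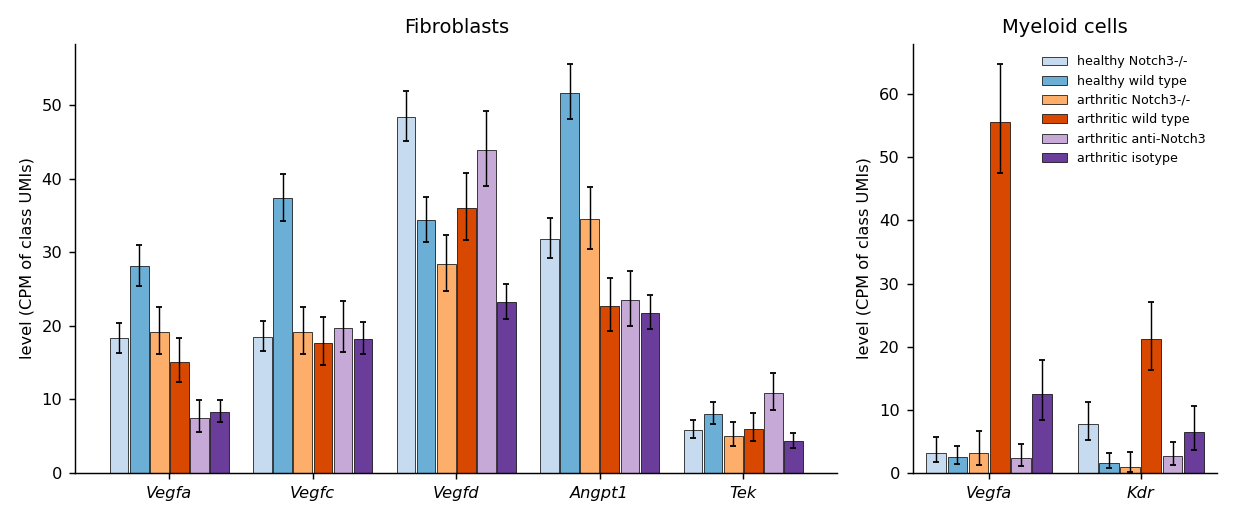
Level of Vegfa, Vegfc, Vegfd, Angpt1 and Tek in fibroblasts (left) and of Vegfa and Kdr in myeloid cells (right) of each library, as bars from 0 in CPM of class UMIs with 95% exact Poisson intervals. Healthy wild-type fibroblasts have the most Vegfa, Vegfc and Angpt1, and arthritic wild-type myeloid cells have 55.6 CPM of Vegfa.

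The ligands differed in the fibroblast clusters where they were highest, with Angpt1 and Vegfa sharing 1. Over all libraries Angpt1 was highest in cluster 6, led by Ccl11 and Fst (80.8 CPM), and in cluster 0, led by Penk and Myoc (63.3 CPM). It was nearly absent from the lining-like clusters 5, led by Clic5 and Tspan15 (0.701 CPM), and 20 (0 UMIs in 156 cells, which allows up to 2.75 CPM). Vegfa followed Angpt1 into cluster 6 (53.7 CPM) and was 2.10 CPM in cluster 5. Vegfc was highest in cluster 3, led by Cfd and Sfrp4 (51.2 CPM), and in cluster 11, led by Scrg1 and Inmt (39.4 CPM), with 39.8 CPM in the tendon-like cluster 12. Vegfd was the ligand of lining-like cluster 5 (89.5 CPM), followed by cluster 7, led by Pi16 and Stmn4 (56.5 CPM). Fibroblast Tek was highest in cluster 7, at 45.4 CPM, against 8.90 CPM or less in each other fibroblast cluster. Of the 441 fibroblast Tek UMIs, cluster 7 held 265 and cluster 2 held 100.

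**Figure D5:**
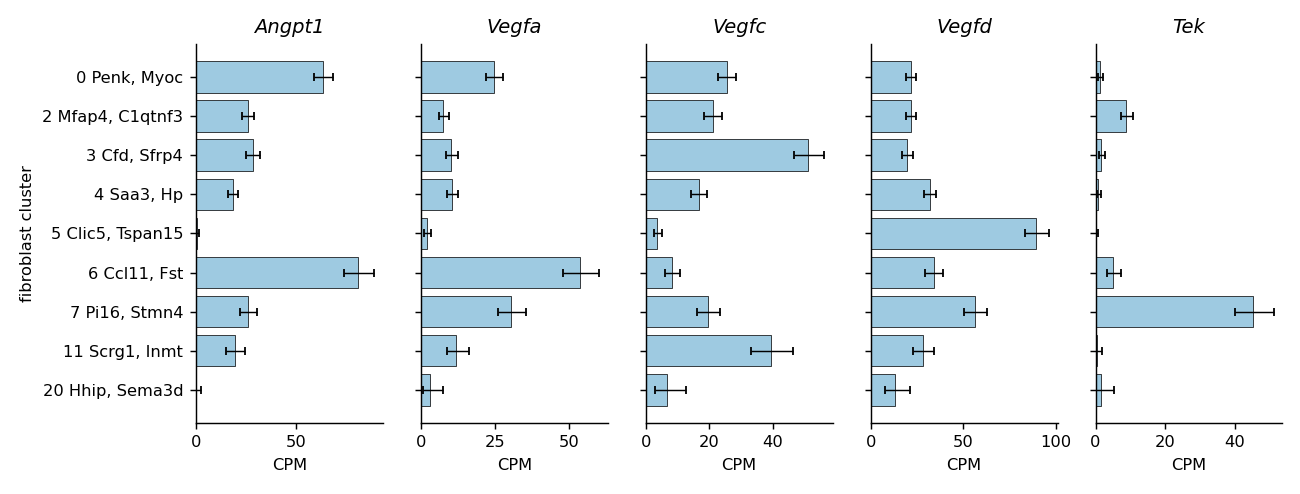
Level of Angpt1, Vegfa, Vegfc, Vegfd and Tek in the 9 fibroblast clusters over all libraries, as bars from 0 in CPM with 95% exact Poisson intervals. Angpt1 and Vegfa peak in cluster 6, Vegfc in cluster 3, Vegfd in cluster 5 and Tek in cluster 7.

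The cluster peaks held in most but not all libraries. Tek was highest in cluster 7 in 6 of 6 libraries. Vegfc was highest in cluster 3 in all but the isotype library, where it stood at 16.4 CPM (5 UMIs) there. Angpt1 and Vegfa were highest in cluster 6 in all but the arthritic wild-type and isotype libraries, where cluster 0 held more. Vegfd was highest in cluster 5 in the 3 Notch3-targeted libraries, in cluster 7 in the 2 wild-type libraries, and in cluster 6 in the isotype library, from 5 UMIs. Tek in cluster 7 measured 33.4 CPM in healthy Notch3-/- against 69.5 CPM in healthy wild-type cells, 31.3 CPM in arthritic Notch3-/- against 61.3 CPM in arthritic wild-type cells, and 42.5 CPM in anti-Notch3 against 67.5 CPM in isotype cells. It was lower in the Notch3-targeted library in 3 of 3 pairs, from 11 to 96 UMIs each. Vegfd in cluster 5 measured 104 CPM in healthy Notch3-/- against 65.5 CPM in healthy wild-type cells, 72.8 CPM in arthritic Notch3-/- against 60.9 CPM in arthritic wild-type cells, and 82.7 CPM in anti-Notch3 against 35.0 CPM in isotype cells. It was higher in the targeted library in 3 of 3 pairs. These comparisons by cluster were made with no test, and the share of all genes that agreed in 3 of 3 pairs is not given. The arthritic wild-type and isotype libraries hold only 60 and 52 cells of cluster 5. Vegfa in cluster 6 measured 59.5 CPM in healthy Notch3-/- against 68.3 CPM in healthy wild-type cells, 39.5 CPM in arthritic Notch3-/- against 7.04 CPM (1 UMI) in arthritic wild-type cells, and 29.4 CPM in anti-Notch3 against 27.2 CPM in isotype cells. Angpt1 in cluster 6 measured 75.8 CPM in healthy Notch3-/- against 108 CPM in healthy wild-type cells, 57.6 CPM in arthritic Notch3-/- against 35.2 CPM in arthritic wild-type cells, and 56.4 CPM in anti-Notch3 against 63.4 CPM in isotype cells. Both stood lower in the 4 arthritic libraries than in the 2 healthy ones, and neither differed in the same direction in all 3 pairs.

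The fibroblast class was made up differently across libraries. Cluster 4 held 0.244% of arthritic Notch3-/- against 45.2% of arthritic wild-type fibroblasts, and 5.14% of anti-Notch3 against 36.3% of isotype fibroblasts. Cluster 2 held 0.122% of arthritic Notch3-/- against 18.5% of arthritic wild-type fibroblasts, and 19.7% of anti-Notch3 against 50.05% of isotype fibroblasts, while cluster 5 held 22.3% of healthy Notch3-/- against 3.24% of healthy wild-type fibroblasts. Fibroblast cluster 2 had 1024 of its 1436 cells from the isotype library, so it may mark that library. Cluster 7, the cluster with the highest Tek level, held 12.8% of anti-Notch3 against 2.06% of isotype fibroblasts. Tek over the whole class was higher in anti-Notch3 fibroblasts at 10.9 CPM, against 4.35 CPM in isotype fibroblasts, while Tek within cluster 7 was lower in anti-Notch3 cells. The part of the cluster mix in the class levels of Angpt1, Vegfd and Tek was not tested.

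In myeloid cells, macrophages, monocytes and dendritic cells, Vegfa set the arthritic wild-type library apart. Vegfa measured 3.23 CPM (12 UMIs) in healthy Notch3-/- against 2.53 CPM (14 UMIs) in healthy wild-type cells, 3.21 CPM (7 UMIs) in arthritic Notch3-/- against 55.6 CPM (168 UMIs) in arthritic wild-type cells, and 2.43 CPM (9 UMIs) in anti-Notch3 against 12.5 CPM (29 UMIs) in isotype cells. The isotype library came second, and the counting intervals of the other 4 overlapped. Vegfa was 17.3-fold lower in arthritic Notch3-/- than in wild-type cells (ratio 0.0578, 0.0229 to 0.122) and 5.13-fold lower in anti-Notch3 than in isotype cells (ratio 0.195, 0.0812 to 0.423). The arthritic wild-type library itself held 4.46-fold as much as the isotype library (2.998 to 6.87).

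The myeloid Vegfa of the arthritic wild-type library was in cluster 15, led by the monocyte genes Ly6c2 and Plac8 (76.0 CPM, 269 cells), and in cluster 1, led by Ms4a7 and Apoe (73.0 CPM, 517 cells). The same cluster 1 had 4.58 CPM in 436 anti-Notch3 cells against 18.3 CPM in 395 isotype cells. The arthritic wild-type library thus stood above the other 2 within cluster 1. Cluster 1 held 5.18% of arthritic Notch3-/- against 51.8% of arthritic wild-type myeloid cells, and 56.2% of anti-Notch3 against 67.1% of isotype cells. Cluster 15 held 5.40% of arthritic Notch3-/- against 26.9% of arthritic wild-type cells, and 0.773% of anti-Notch3 against 7.30% of isotype cells. In the arthritic genotype pair, lower Vegfa in the class cannot be told apart from this different mix of clusters. In the edgeR fit over all 3 pairs 0 of 3 myeloid members passed, against 0.0291% of 10295 genes, and Vegfa had a log2 change of -2.07 (SE 0.802, adjusted p = 0.872). For the arthritic pairs alone edgeR called 0 of 2 members and 0 of 9356 genes (0.0%), with 941 genes at an unadjusted p under 0.05, and gave Vegfa -3.24 (adjusted p = 0.119). DESeq2 on the same libraries called 64 genes with Vegfa among them (-3.20, adjusted p = 0.00520), so this call depended on the tool. For arthritis 0 of 3 members and 0 of 10295 genes (0.0%) passed in edgeR, with 920 genes at an unadjusted p under 0.05 and 70 called by DESeq2, and Vegfa had 2.26 (edgeR adjusted p = 0.614).

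Kdr and Flt1, endothelial receptors with a lower level in myeloid cells, were uneven across libraries. Kdr measured 7.80 CPM (29 UMIs) in healthy Notch3-/- against 1.63 CPM (9 UMIs) in healthy wild-type myeloid cells, 0.918 CPM (2 UMIs) in arthritic Notch3-/- against 21.2 CPM (64 UMIs) in arthritic wild-type cells, and 2.70 CPM (10 UMIs) in anti-Notch3 against 6.44 CPM (15 UMIs) in isotype cells. Flt1 measured 12.4 CPM (46 UMIs) in healthy Notch3-/- against 0.723 CPM (4 UMIs) in healthy wild-type cells, and 0.810 to 3.64 CPM in the 4 arthritic libraries. The high libraries were arthritic wild type for Kdr and healthy Notch3-/- for Flt1. Over all libraries Kdr was highest in myeloid clusters 17 (18.7 CPM), 15 (13.8 CPM) and 13 (13.6 CPM), and Flt1 in cluster 13 (8.43 CPM). The 11 endothelial markers summed to 97.9 CPM in healthy Notch3-/- against 58.95 CPM in healthy wild-type myeloid cells, 59.2 CPM in arthritic Notch3-/- against 42.7 CPM in arthritic wild-type cells, and 50.2 CPM in anti-Notch3 against 64.0 CPM in isotype cells, with Erg at 0 in 4 of 6 libraries. Their sum was lowest in the arthritic wild-type library, where Kdr was highest, and highest in the healthy Notch3-/- library, where Flt1 was highest, and its part in the Flt1 level was not tested. By pair, 2 of 3 members were higher in the healthy pair (Kdr and Flt1; 6.5% of 10501 genes were higher). In the arthritic genotype pair 2 of 2 were lower (Vegfa and Kdr; 16.3% of genes), and in the antibody pair 2 of 2 were lower (Vegfa and Kdr; 16.8% of genes). The same 2 genes were higher in the arthritic wild-type than in the isotype library (11.7% of genes) and in wild-type arthritis than in wild-type health (10.7% of genes). In Notch3-/- mice 2 of 2 members, Kdr and Flt1, were lower in arthritis (10.1% of genes). Vegfa alone of 2 genes with at least 100 UMIs lay above the other 4 libraries in both untargeted arthritic ones (10.4% of genes). The interaction test gave 0 of 4 members, against 0.00912% of 10962 genes, with an edgeR adjusted p of 0.231 for Kdr, 0.190 for Flt1 and 0.244 for Vegfa. Of the hypoxia-response genes none passed in myeloid cells, with Slc2a1, a glucose transporter, at 8.72 CPM in arthritic Notch3-/- against 27.5 CPM in arthritic wild-type cells and 7.83 CPM in anti-Notch3 against 15.5 CPM in isotype cells.

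Across 24 sums of 4 classes by 6 libraries, the genes whose log2(CPM + 1) ran most like each member were mostly of the same class. Tie1 was most like Emcn (Pearson r = 0.998), Myct1 and Robo4. Kdr was most like Clec1a (r = 0.979), Zfp366 and Dll4, Flt1 like Sox17 (r = 0.983), Podxl and Zfp366, and Tek like Lmo7 (r = 0.989), Hspa12b and Ephb4. Angpt2 was most like Mcam (r = 0.948), A430105I19Rik and Selp. Among ligands of fibroblasts Vegfd was most like Slit3 (r = 0.968), Gpc4 and Gstm2, Angpt1 like Tbx18 (r = 0.936), Ccl19 and Fap, and Vegfc like Hic1 (r = 0.938), Ccser2 and Efhd1. Vegfa had the weakest match, with Bdh2 (r = 0.803), Ifi205 and Gm15417. These points share libraries and cell classes, and the correlations describe how the levels are distributed over them.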

How the data were processed

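The authors deposited a matrix of UMI counts per gene and cell barcode for each library, made with Cell Ranger 3.0.2 against mm10, per the submitters' processing notes. The deposited barcodes all had at least 501 genes, so a filter on cells preceded deposit. The counts are raw: no normalisation, batch correction or pooling of libraries was found in them. From these, 414 barcodes over 10% mitochondrial UMIs were removed. The 18077 remaining barcodes were clustered with scanpy 1.11.5 and leidenalg 0.10.2 (1906 variable genes without the 9 genes, the pathway lists or Notch3, 30 components, 20 neighbours, resolution 1, 24 clusters). The 179 doublets called by Scrublet (0.990%) were dropped after clustering, which left 17898 cells. Clusters were named from marker lists by a scoring rule chosen after the data were seen, and a cell was kept in its class if it had at least 1 UMI of that class's markers, which left 17578 named cells. Endothelial cells were re-clustered at resolution 0.8. UMIs were summed per library and class and given as CPM with exact Poisson intervals at 95%, and a count of 0 was given its upper limit.

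Sums were tested with edgeR 4.0.16 in R 4.3.3 (quasi-likelihood, TMM scaling, filterByExpr, Benjamini-Hochberg over all genes tested, threshold 0.05), with DESeq2 1.42.0 as an alternative, after a check on simulated counts. The Notch3 fit has pair and targeting as terms, the arthritis fit has targeting and disease, and the fit of their difference adds the interaction. Each group is 1 library of 10 pooled mice, so the spread is that between pairs or between libraries of like state, and p-values rest on treating the knockout and the antibody, or the isotype and untreated wild type, as repeats. Genes with too few counts were not tested: 6 of 9 members were tested in endothelial cells and in fibroblasts and 3 in myeloid cells, and these are not all members.

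The 9 genes and the pathway lists were chosen with earlier results of these data known. The named genes are the 9 members, the listed pathway genes that passed or had the most UMIs, and the 3 genes most correlated with each member. Alternatives were another scaling, no filter on low counts, DESeq2, no gate or a gate per cell, all deposited barcodes, doublets kept, levels as a mean over cells or thinned to 2000 UMIs, and leaving out each pair or library. Gene positions are from GENCODE vM21 and promoter sequences from RefSeq on GRCm38.p6.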

Additional observations from a re-analysis of the deposited data

Results flagged for a closer look

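The Notch3 effect on endothelial Vegfc differed between the arthritic pairs and the healthy pair by 1.89 on the log2 scale (edgeR interaction test, adjusted p = 0.0368), with Vegfc at 1.04-fold in the healthy pair, 6.58-fold in the arthritic genotype pair and 2.94-fold in the antibody pair. The healthy pair is 1 library against 1, so a gene's own spread rests on the 2 arthritic pairs, with 1 residual degree of freedom. Most of the spread in the test came from all genes together, which edgeR weighted as 77.23 degrees of freedom.

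Myeloid Kdr was 4.79-fold higher in healthy Notch3-/- than in healthy wild-type cells (29 and 9 UMIs) but lower in arthritic Notch3-/- than in arthritic wild-type cells (2 and 64 UMIs) and in anti-Notch3 than in isotype cells (10 and 15 UMIs). The opposite directions were picked by fold alone, and the interaction test of the same gene did not pass (edgeR adjusted p = 0.231).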

How the results depend on the processing

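Each group is 1 library, so no limit is set by replicates within a group but by the agreement of 3 pairs, and a member with under 20 UMIs in a pair gives no usable fold. The Notch3 fit is paired, with the pair as its block, and the labels give no replicate numbers for any other pairing. Endothelial members called for Notch3 targeting numbered 0 in the main fit and 2 with no filter on low counts (Angpt2 and Vegfc). When each pair was left out they numbered 0 to 3. They numbered 3 without the healthy pair and mixed sub-clusters, and 2 without the healthy pair and lymphatic sub-cluster. The last 2 settings were chosen after the data were seen. In edgeR, the no-filter endothelial fits and every endothelial fit without the healthy pair gave all genes 1 shared spread. The no-filter myeloid fit of arthritis did so too. Myeloid members called were 1 with no filter and 1 with DESeq2 without the healthy pair (Vegfa each time), for arthritis 1 with no filter in myeloid cells (Vegfa) and 0 to 1 in endothelial cells when each library was left out, and for the difference between pairs 4 with no filter, 3 of them in myeloid cells, and 1 with RLE scaling.

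Over all genes, edgeR without a filter called 249 endothelial, 70 fibroblast and 147 myeloid genes for Notch3 targeting and 196, 57 and 543 for arthritis, and DESeq2 called 29, 198 and 33 and then 4, 55 and 70. Without the healthy pair the Notch3 counts were 1081, 311 and 0. Without the healthy Notch3-/- library 431 endothelial genes were called for arthritis.

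No member was called in opposite directions by different settings. The directions that turned belonged to members not called in the main fit, and their cause was not tested. Myeloid Vegfa, called higher in arthritis with no filter, was among those that turned. For Notch3 targeting, endothelial Kdr was -0.010 with doublets kept and -0.060 to 0.21 over the left-out pairs. In fibroblasts Vegfa ran from -0.34 to 0.18 (DESeq2 without the healthy pair 0.17), Vegfc from -0.40 to 0.18 (0.18), Angpt1 from -0.24 to 0.42 (-0.044 with all deposited barcodes) and Tek from -0.29 to 0.68, and in myeloid cells Kdr ran from -2.502 to 0.82. For arthritis over the left-out libraries, endothelial Vegfc ran from -1.54 to 0.32, fibroblast Vegfc from -1.05 to 0.040, fibroblast Angpt2 from -2.54 to 0.20 and fibroblast Tek from -0.66 to 0.39 (0.0062 with all barcodes). Myeloid Vegfa ran from -0.23 to 4.03, Kdr from -1.96 to 3.35 (-0.13 with DESeq2) and Flt1 from -3.30 to 2.31. Leaving out the healthy wild-type library turned 6 of these 15 arthritis changes. Of 78 levels, 78 moved by less than their interval with no gate, 77 with the per-cell gate, 60 as a mean over cells and 63 after thinning.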

Other observations

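Angpt4, a further angiopoietin that binds Tie2, was found in fibroblasts at 9.77 CPM in healthy Notch3-/- against 10.7 CPM in healthy wild-type cells, 16.9 CPM in arthritic Notch3-/- against 1.32 CPM in arthritic wild-type cells, and 6.17 CPM in anti-Notch3 against 2.24 CPM in isotype cells. The 2 untargeted arthritic libraries were the lowest, and Angpt4 did not pass in any fit. Angpt1 in the same class was lowest there too, but only slightly below the anti-Notch3 library. Dll4, the Notch ligand of tip and arterial cells, stood in endothelial cells at 124 CPM in healthy Notch3-/- against 82.3 CPM in healthy wild-type cells, 71.8 CPM in arthritic Notch3-/- against 61.0 CPM in arthritic wild-type cells, and 47.7 CPM in anti-Notch3 against 44.2 CPM in isotype cells. It did not pass in any fit. Its level was higher in the targeted library in 3 of 3 pairs, and the share of all genes that were is not given. Cxcr4, a tip-cell gene in endothelium and a chemokine receptor of leukocytes, was also high in myeloid cells of the library with high myeloid Vegfa, at 64.3 CPM in arthritic Notch3-/- against 445 CPM in arthritic wild-type cells and 96.3 CPM in anti-Notch3 against 163 CPM in isotype cells.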
